A study of Mus musculus with 18 samples.

Results

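Thymocytes of 24 month old mice were set against thymocytes of 16 month old mice, the oldest pair of ages in a series of C57BL/6 animals. The comparison uses 6 of the 18 samples of the series, 3 per age, chosen by the age in their labels. Each sample is described as the isolated thymocytes of 1 mouse, labelled with Cy3 and hybridised to an Agilent 2-colour array together with Cy5-labelled thymocyte RNA of 1 month old mice. The 3 arrays of 6 month old mice entered the same model and are given only as a description. No genotype or treatment other than age separates the groups, and no sex is labelled. The design text calls the Cy5 channel a pool of 1 month old mice while the labels number its samples singly, so which it was could not be settled. Each older mouse has 1 array, so the animal, its array and its Cy5 partner cannot be told apart. A spread between animals below includes all of these. Each value below is a log2 ratio of the older animal to the 1 month channel of its array, and a difference is the mean of the 24 month arrays minus the mean of the 16 month arrays, so that 1 on this scale is 2-fold and the effect of the dyes cancels.

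The thymus is where T cells mature. Progenitors from the marrow enter it, rearrange their antigen receptor genes as CD4+CD8+ double-positive cells, are selected by ligands on thymic epithelial cells, and leave as CD4+ or CD8+ single-positive cells. The organ shrinks with age: epithelial tissue is lost, fat takes its place and the output of new T cells drops, while B lineage cells and returning mature T cells take up more of what is left. Much of this is known to be under way by middle age, and the question here is what still differs between middle-aged and old animals.

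The samples are labelled as thymocytes. Cy3 signals of all 19 measured genes of the double-positive thymocyte list were well above background on every array of 1 age or both. Cd4, Cd8a, Cd8b1, Rag1 and Rag2 were among them. Of all 15327 named genes only 398 were not, so this does not tell which cells were present. The suspensions were strained, washed and treated to lyse red cells, and RNA of other cells was still seen, as described further on. Cy3 signals of the 16 month arrays were well above background for 89.6 to 90.3% of non-control spots. On the 24 month arrays the share was 88.8% in replicate 1, 79.6% in replicate 2 and 89.3% in replicate 3. Replicate 2 was also the dimmest of the 9 arrays in Cy3, with a median net signal of 61.2 against 95.3 and 102 in the other two of its age and 109 to 115 at 16 months. Arrays of 24 months varied more than those of 16 months: the median standard deviation of a probe within an age was 0.154 and 0.126.

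No single probe separated the ages once all probes were taken into account. Of 37448 probes tested, 0 passed an adjusted p of 0.05 in limma's moderated test with Benjamini-Hochberg adjustment (0% called), and the smallest adjusted p was 0.862. At an unadjusted p under 0.05 there were 1786 probes, or 4.77%, which is about what this cut-off gives when nothing differs. They were split unevenly, with 469 probes higher at 24 months (1.25%) and 1317 lower (3.52%). With the Cy3 signal alone, quantile normalised, the split was 891 higher and 986 lower, with the authors' deposited scores 622 and 1037, and without 24 month replicate 2 it was 691 and 731. The number of arrays limits what can be seen, and 89.9% of the probes had a 95% interval of the difference that lay wholly within 2-fold either way, while 69.8% lay within 1.5-fold. The median absolute difference was 0.10, against a median standard error of 0.13.

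Whole arrays gave the same picture. Across genes, pairs of 16 month arrays correlated at 0.474 to 0.662 and pairs of 24 month arrays at 0.455 to 0.608. The 9 pairs made of 1 array of each age correlated at 0.353 to 0.708, which takes in both of those ranges. The root mean square difference between arrays of different ages had a median of 0.346, against 0.346 within 16 months and 0.455 within 24 months. By median, the arrays of 24 months lay farther from each other than from those of 16 months, but this rested on replicate 2. The pairs with it, the dimmest array, were at 0.455 and 0.496 within 24 months and at 0.438 to 0.548 between the ages. The 24 month pair without it was at 0.349. Probes are not independent replicates, and these are descriptions.

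**Figure D1:**
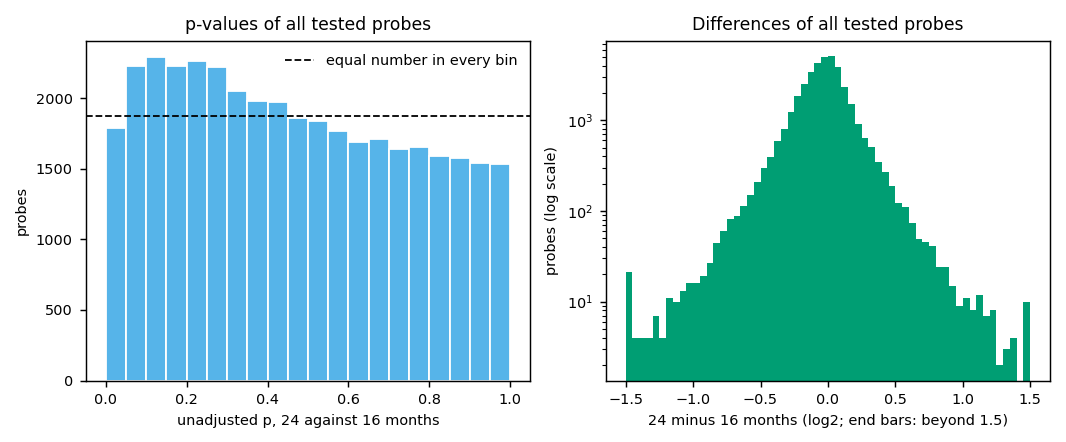
Left, number of tested probes in each 0.05-wide bin of the unadjusted limma p for 24 against 16 months, with a dashed line at an equal number in every bin; the first bin, at 1786 probes, lies under the line. Right, number of tested probes (log axis) by difference of 24 minus 16 months in log2 units; the left side is wider than the right.

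Of the 37448 probes, 3919 (10.5%) had 24 month arrays that did not overlap with the 16 month arrays, 1581 of them higher (4.22%) and 2338 lower (6.24%). Among the lower ones, 24 month replicate 2, the dimmest array, held the lowest value for 61.8%, and among the higher ones it held the highest for 56.3%. Its part in these counts was not tested. The genes named next are the 12 in each direction with the smallest p among genes whose arrays did not overlap. They were picked for being apart, so their values are given as a description, and in the limma fit each of the 24 had an adjusted p of 0.862.

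Krt18, a keratin of simple epithelia that marks thymic epithelial cells, had the largest difference among these 12 genes higher at 24 months. Its log2 ratios (probe A_51_P324814) were -1.07, -0.95 and -1.24 in the 16 month mice and 0.49, -0.50 and -0.42 in the 24 month mice. All 3 old animals were above all 3 middle-aged ones, and replicate 1 was well above the other two. The difference was 0.95 ± 0.24 (SE, n = 3 per age), and it was 0.63 without 24 month replicate 1. At 6 months the ratios were lower still, at -1.61, -1.66 and -1.45.

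Tbata (A_51_P514584), which encodes a protein of thymic stroma and testis reported to act on the thymic epithelium, read -1.30, -1.38 and -1.35 at 16 months. At 24 months it read -0.55, -0.86 and -0.91. The difference was 0.57 ± 0.14 (SE, n = 3 per age). All old animals were below the 1 month level for Tbata, and all but replicate 1 for Krt18, by less than the 16 month animals were.

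Rbm3, an RNA-binding protein known for its induction by mild cold, was the brightest of the 24. Its probe A_51_P262340 gave -1.45, -1.66 and -1.21 at 16 months, and -0.97, -0.50 and -0.46 at 24 months. The difference was 0.80 ± 0.18 (SE, n = 3 per age). The 6 month mice, at -0.63, -0.95 and -0.54, lay in the range of the 24 month mice, so the low values were those of the 16 month animals. A second Rbm3 probe gave a difference of 0.04 ± 0.07, and the cause of this disagreement was not tested. Cirbp, the close relative of Rbm3, is among the other 4 cold-inducible genes, whose differences were all negative and none below -0.03.

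Dnajb1, a co-chaperone of Hsp70, was higher at 24 months on both of its probes, by 0.34 ± 0.09 on the brighter and 0.34 ± 0.14 on the other. The brighter probe read -0.47, -0.58 and -0.36 at 16 months against -0.19, -0.21 and 0.02 at 24 months. The ages did not overlap on either probe. Of the other 8 genes higher at 24 months, Pth2r, a parathyroid hormone family receptor, had the largest difference, 0.93 ± 0.20, but a brighter Pth2r probe gave -0.06 ± 0.07. The remaining 7 were Higd1b (0.57), L3mbtl4 (0.49), Pdgfrl (0.42), Serpina11 (0.39), Lgi1 (0.35), Cypt4 (0.29) and Kcna4 (0.26), the last a voltage-gated potassium channel. For Lgi1 the difference was -0.24 with the Cy3 signal alone after quantile normalisation, the opposite sign.

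Prkca, a classical protein kinase C that is activated by calcium and diacylglycerol, had the smallest p among the genes lower at 24 months. It read 0.15, 0.13 and 0.05 at 16 months and -0.49, -0.65 and -0.25 at 24 months, a difference of -0.57 ± 0.10 (SE, n = 3 per age; probe A_51_P118012). The 6 month mice lay at -0.32, -0.27 and -0.33, so the 16 month animals stood above both other ages. With normexp background correction and loess within arrays together the difference was -0.26.

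Among the other lower genes, Aifm1, the mitochondrial apoptosis-inducing factor, read 0.53, 0.59 and 0.45 at 16 months and 0.01, -0.67 and -0.26 at 24 months on its dim probe, a difference of -0.83 ± 0.16. A brighter Aifm1 probe also showed no overlap but a smaller difference, -0.22 ± 0.09. Rad18, a ubiquitin ligase of post-replication repair, differed by -0.44 ± 0.09, and a second probe gave -0.29 ± 0.18 with overlapping arrays. Dctd, which deaminates dCMP in the supply of thymidylate, differed by -0.36 ± 0.07. Its 24 month values were -0.20, -0.25 and -0.25, and its 16 month values 0.08, 0.13 and 0.16.

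The other 8 lower genes were Ahcyl1, a regulator of inositol trisphosphate receptors (-0.58), Tollip, an adaptor of Toll-like and interleukin-1 receptor signalling (-0.56), Tada2a, a subunit of histone acetyltransferase complexes (-0.56), the eosinophil chemokine Ccl24 (-0.52), Tbx18 (-0.48), the cholesterol carrier Stard4 (-0.43), Ptprn2 (-0.74) and B230317F23Rik (-0.89). Brighter probes did not always bear these out. They gave -0.08 ± 0.06 for Tollip, -0.03 ± 0.13 for Tada2a and 0.09 ± 0.28 for Stard4, while a second Ccl24 probe gave -0.26 ± 0.12 without overlap. All 12 lower genes and 8 of the 12 higher ones had a mean log2 intensity under the median of tested probes, 9.77. When probes were ranked by intensity and divided into 3 classes, 4.73% of the dimmest class were lower at an unadjusted p under 0.05, against 2.60% of the brightest, and for higher probes the shares were 2.22% and 0.759%.

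**Figure D2:**
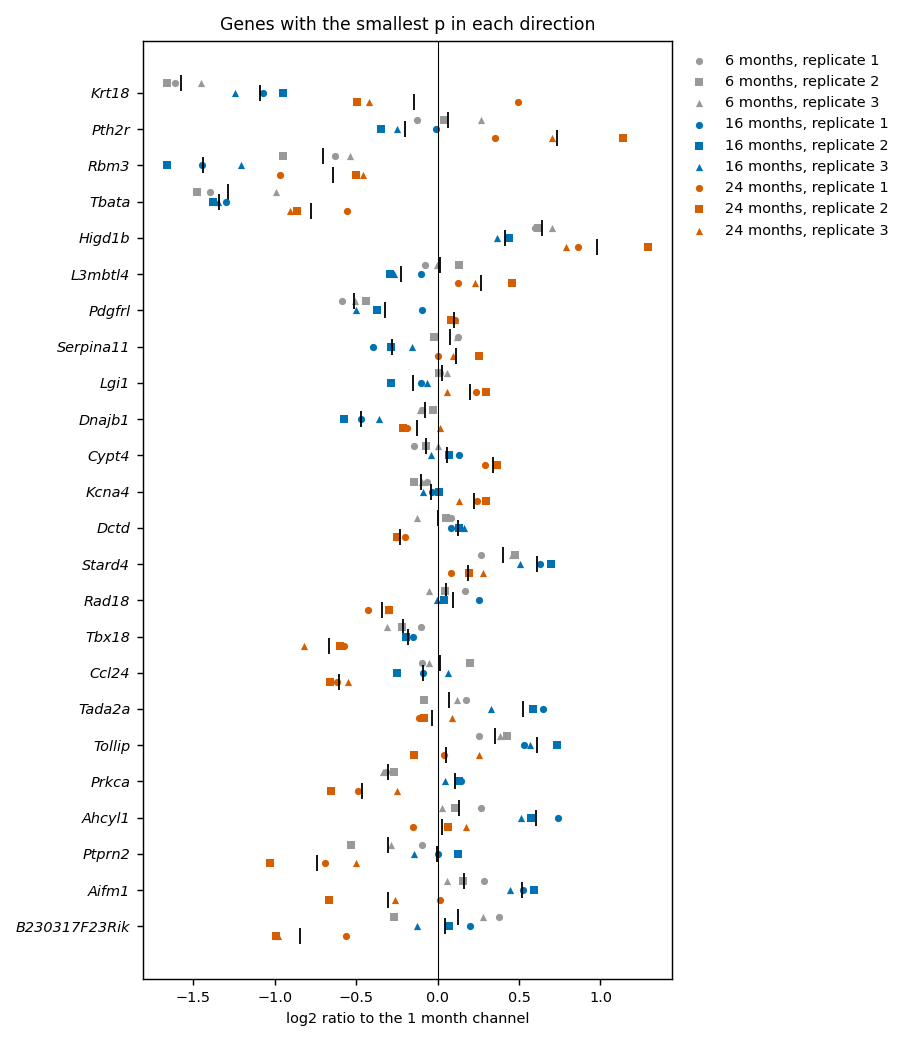
Log2 ratio to the 1 month channel (horizontal axis) of the 24 genes named by the smallest p in each direction, for each of the 9 arrays, coloured by age with a marker per replicate; black ticks are group means. The 12 genes at the top are higher and the 12 at the bottom lower at 24 months, with no overlap between 16 and 24 months; Krt18 has the largest difference upwards, 0.95.

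Of the 50 lists of genes set up for this tissue, thymic epithelium had the highest share of members that were above at 24 months without overlap. The list was set up for the stromal cells that feed and select thymocytes, and which cells its transcripts came from here was not measured. Of 28 measured members, 21 had a positive difference and the median was 0.14, while over all 15327 named genes 40.7% were positive and the median was -0.03. In 6 members (21.4%) every 24 month array was above every 16 month array, and in 0 members was every one below. The shares over all named genes were 4.36% and 6.84%. None of the 28 passed the adjusted threshold. In bulk RNA, more cells of a type and more RNA per cell cannot be told apart.

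Ccl25, the chemokine by which epithelium attracts progenitors through Ccr9, was at -2.00, -2.31 and -2.29 at 16 months. In the 24 month mice it was at -1.26, -2.43 and -1.73. Replicate 2 lay below every middle-aged animal while the other two lay above them, and the difference was 0.39 ± 0.28 (SE, n = 3 per age). The 6 month values were -2.63, -2.54 and -2.12, so this transcript was well below the 1 month level at every age. Krt8, the partner keratin of Krt18, was at -0.49, -0.34 and -0.41 at 16 months and 0.39, -0.33 and -0.26 at 24 months. Its difference was 0.34 ± 0.18, and the nearest animals of the 2 ages were almost equal.

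Other epithelial genes are named here after their values were seen. Prss16, the thymus-specific serine protease of cortical epithelium, was at -1.38, -1.68 and -1.59 at 16 months and -0.64, -1.55 and -1.11 at 24 months. Trp63, the transcription factor of epithelial progenitors, had a difference of 0.41 ± 0.16, and Krt15 one of 0.38 ± 0.15, with 24 month replicate 3 missing for Krt15 because its spot was an outlier. Enpep, Eya1 and Cldn3 made up the 6 without overlap together with Krt18, Krt8 and Tbata. The master regulator of the epithelium did not join them: Foxn1 differed by -0.04 ± 0.07, and Aire, which drives the display of tissue antigens in the medulla, by -0.04 ± 0.15. Il7, a survival factor for thymocytes made by epithelium, differed by 0.04 ± 0.18.

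The epithelial values leaned on 1 array. The list's median ratio was 0.09 in 24 month replicate 1, -0.16 in replicate 2 and -0.07 in replicate 3, against -0.14 to -0.10 at 16 months. Without replicate 1 the median difference was 0.06. The array of replicate 1 was also the highest of the 6 for the medians of the MHC class II list (1.18), the macrophage list (0.53) and the stroma and matrix list (0.46). The stromal proteoglycan Dcn was at 2.92 there, against 0.89 to 2.10 on the other 5 arrays. The fatty-acid carrier Fabp4 was at 1.87 there and between -0.23 and 0.17 elsewhere, and Fos and Jun, the immediate early genes, were at 1.70 and 1.26. The part of these cells or of handling in the epithelial values was not tested.

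**Figure D3:**
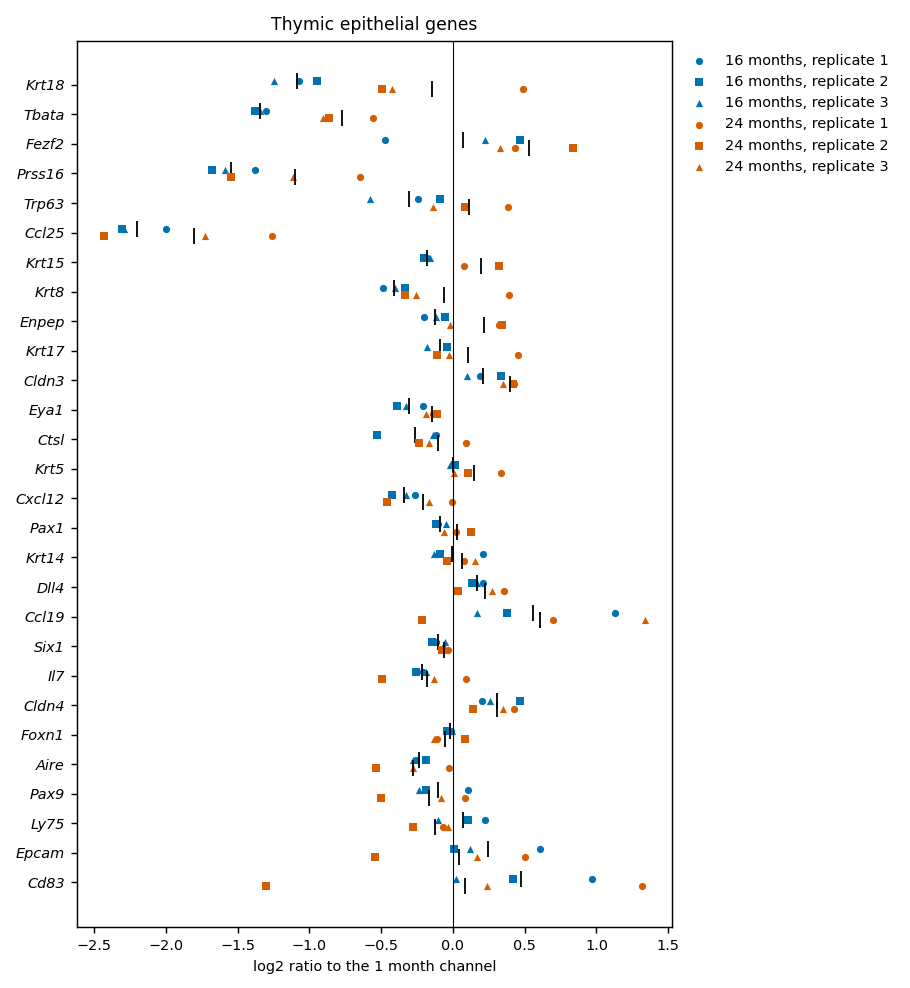
Log2 ratio to the 1 month channel of the 28 measured thymic epithelial genes on the 3 arrays of 16 months (blue) and the 3 of 24 months (orange), one marker per replicate, ticks at group means, ordered by difference. Krt18, Tbata, Prss16 and Ccl25 lie below 0 at 16 months and most of their 24 month points lie to the right; replicate 1 (circles) is often farthest right.

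Genes of the main thymocyte population were examined next. Among 19 double-positive thymocyte genes, 0 had non-overlapping arrays and 0 reached an unadjusted p under 0.05 in limma. Over all named genes 6.84% were lower and 4.36% higher without overlap, so few or none of 19 would be so at the general share, and the zeros say little. Of the 19 differences, 14 were negative and 5 positive (26.3%, against 40.7% over all named genes). Their median was -0.08 and they ran from -0.33 to 0.09. Cd8a, the CD8 alpha chain, was at -0.30, -0.60 and -0.45 at 16 months and -0.43, -0.55 and -0.36 at 24 months, a difference of 0.00 with a 95% interval of -0.23 to 0.23. Rag1, a subunit of the recombinase, differed by 0.01 (95% interval -0.37 to 0.39) and Cd4 by -0.13 (-0.63 to 0.37). The interval was narrow for Cd8a and wide for Cd4. Cd8b1, Aqp11 and Cd24a differed by -0.13 ± 0.27, -0.21 ± 0.14 and -0.10 ± 0.09, with overlapping arrays.

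The T lineage transcription factors had 14 of 20 positive differences and a median of 0.07. Tcf7, which commits progenitors to the T lineage, differed by 0.08 ± 0.09, Bcl11b by 0.02 ± 0.35 and Gata3 by 0.01 ± 0.15. T cell receptor signalling genes leaned the other way, with 23 of 28 negative and a median of -0.10. The smallest p was that of Rasgrp1, which links the receptor to Ras: 0.63, 0.64 and 0.57 at 16 months against 0.47, 0.36 and 0.49 at 24 months, a difference of -0.17 ± 0.06. The kinases Lck and Zap70 differed by -0.06 ± 0.12 and -0.17 ± 0.17, with overlapping arrays. The count without overlap was 1 higher and 2 lower of 28, or 3.57% and 7.14%, near the shares over all named genes.

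Genes of maturation and egress had 19 of 22 negative differences and a median of -0.19. Gimap3, a GTPase of lymphocyte survival, read 0.70, 0.52 and 0.33 at 16 months and 0.32, -0.11 and 0.28 at 24 months. It was the 1 member of 22 without overlap (4.55% lower, 0 higher), against 6.84% lower and 4.36% higher over all named genes. Its difference was -0.35 ± 0.14, and the gap between 16 month replicate 3 and 24 month replicate 1 was narrow. S1pr1, the receptor by which mature thymocytes leave, differed by -0.01 ± 0.09 and Klf2, its activator, by 0.00 ± 0.45. The lowest list median was that of 24 month replicate 2, -0.34, against 0.26 and 0.15 in the other old animals. Without replicate 1 the list's median difference was -0.37, and with array weights, which gave replicate 2 little weight, it was 0.04.

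Genes of early thymic progenitors had the second lowest median of the lists, -0.25 over 17 genes, with 12 negative and 0 without overlap. Over all named genes 6.84% were lower and 4.36% higher without overlap, so 0 of 17 says little. Il7r, the receptor for interleukin 7 that progenitors and mature cells both carry, was at 1.34, 1.00 and 0.28 at 16 months and 0.86, -0.39 and 0.59 at 24 months. Its difference was -0.52 ± 0.37 and the ages overlapped. Kit, the stem cell factor receptor, differed by -0.12 ± 0.17, and Flt3, a receptor of multipotent progenitors, by 0.03 ± 0.09. Lyl1, a transcription factor of early progenitors, differed by -0.33 ± 0.15. With array weights the median of this list was -0.04.

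DNA damage and repair genes were mostly on the negative side. Of 35 measured, 31 were negative, the median was -0.15, and 5 (14.3%) had 24 month arrays wholly below the 16 month arrays, against 6.84% of all named genes. Parp1, which senses strand breaks, was at 0.90, 0.70 and 0.35 at 16 months and 0.21, 0.00 and 0.30 at 24 months, a difference of -0.48 ± 0.16. Prkdc, the kinase of non-homologous end joining that V(D)J recombination needs, was at 0.79, 0.86 and 0.55 against 0.40, 0.43 and 0.29, a difference of -0.36 ± 0.14. Rad50, of the break-sensing MRN complex, differed by -0.25 ± 0.09.

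Its partners in end joining were less apart. The Ku subunits Xrcc6 and Xrcc5 differed by -0.20 ± 0.19 and -0.06 ± 0.11, both overlapping. Lig4, the ligase of end joining, named after its values were seen, was also without overlap, at -0.19 ± 0.16. The list's median was 0.33 in 16 month replicate 2 against 0.11 and 0.10 in the other middle-aged mice and 0.01 to 0.11 in the old ones. Without that array the median difference was -0.08. It also had the highest median of the cell cycle and DNA replication list at 16 months, 0.40 against -0.20 and 0.04. The part of cycling in the repair values was not tested.

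The ribosomes of the mitochondrion and of the cytosol leaned apart. Of 74 mitochondrial ribosomal genes, 10 (13.5%) were positive with a median of -0.10, against 40.7% positive over all named genes. Arrays did not overlap for 8 genes lower (10.8%) and 0 higher, against 6.84% and 4.36% of all named genes. Mrps15, a small-subunit protein, was at -0.03, 0.04 and 0.03 at 16 months and -0.18, -0.15 and -0.19 at 24 months, a difference of -0.19 ± 0.06, and Mrps12 differed by -0.22 ± 0.08. Of 76 cytosolic ribosomal proteins 58 were positive, with a median of 0.05. Arrays did not overlap for 3 higher (3.95%) and 1 lower (1.32%), both under the shares over all named genes. Rpl7 and Rps3a1, the members with the smallest p, differed by 0.22 ± 0.09 and 0.20 ± 0.09. Rpl3, Rpl5 and Rpl6 differed by 0.04 ± 0.15, 0.01 ± 0.12 and 0.13 ± 0.14, with overlap. Genes of the respiratory chain had medians of -0.04 over 31 genes of complex I and -0.01 over 40 of complexes II to V.

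Cytosolic chaperones were mixed. Of 27, 22 were negative with a median of -0.18, 5 were lower without overlap (18.5%) and 2 higher (7.41%). Over all named genes these shares were 6.84% and 4.36%. Hsp90aa1, the inducible Hsp90, was at 0.34, 0.94 and 0.38 at 16 months and -0.19, 0.27 and -0.06 at 24 months, a difference of -0.55 ± 0.18. Hsp90ab1, the constitutive form, differed by -0.20 ± 0.24, and Hspa8 by 0.35 ± 0.29. The high array was again 16 month replicate 2, with a list median of 0.75 against 0.22 and 0.34, and without it the median difference was -0.03. Dnajb1, above, went against the list.

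Transcripts of other blood cells varied more between arrays of 1 age than between ages. S100a9, a calcium-binding protein of granulocytes, was at -1.21, 2.13 and -3.71 at 16 months and -3.93, -2.51 and -5.25 at 24 months. Its difference of -2.97 had a standard error of 1.35, and the groups overlapped. S100a8 behaved alike, from -4.02 to 1.47 at 16 months and from -6.13 to -2.81 at 24 months. Over 18 granulocyte genes the median difference was -0.46, the lowest of all lists. It was -0.15 without 16 month replicate 2, the array on which these genes were high. Csf3r, the receptor for the granulocyte growth factor, was the 1 member without overlap (5.56% lower, 0 higher), at -0.28 ± 0.09. Over all named genes these shares were 6.84% lower and 4.36% higher.

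Haemoglobin transcripts also ranged widely in these suspensions, which had been treated to lyse red cells. The mean of 5 haemoglobin probes was 1.94, 1.35 and -0.66 at 16 months and -1.81, 0.45 and 1.43 at 24 months. The ages overlapped. With this mean as a covariate 0 probes passed the threshold.

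Cxcr6, Nkg7 and Ccl5, transcripts of mature and innate-like T cells, stood above the 1 month level at both ages, with lower means at 24 months. Il4, of the same innate-like list as Cxcr6, lay under that level at both and differed by 0.02 ± 0.08. Of 17 genes of that list 12 were negative and 5 positive, with a median of -0.18. Arrays did not overlap for 1 of them lower (5.88%) and 0 higher, against 6.84% and 4.36% of all named genes. Cxcr6, a chemokine receptor of innate-like and resident T cells, was at 3.38, 3.57 and 1.89 at 16 months and 1.74, 1.44 and 2.06 at 24 months, a difference of -1.20 ± 0.41. The groups overlapped because 16 month replicate 3 lay below the highest old animal. At 6 months Cxcr6 was at 1.06, 0.61 and 0.95. Nkg7, a granule protein of cytotoxic cells, was at 1.82, 1.61 and 0.93 against 1.09, 0.51 and 1.11, a difference of -0.55 ± 0.25, and the chemokine Ccl5 differed by -0.04 ± 0.39.

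Of the 27 NK and cytotoxic genes, 2 were lower without overlap (7.41%), close to the 6.84% over all named genes, and 0 were higher. They were Prf1 and Klrg1. Prf1, perforin, was at 0.16, 0.03 and 0.15 at 16 months and -0.76, -0.76 and -0.18 at 24 months, a difference of -0.68 ± 0.18. Klrg1, an inhibitory receptor of antigen-experienced cells, differed by -0.61 ± 0.22. The probes of both were dim. The median of the list was -0.14, with 20 negative. In the other direction the chemokine Ccl3, named after its values were seen, differed by 0.41 ± 0.17 with overlap. Foxp3, the regulator that defines regulatory T cells, was at -0.06, -0.18 and -0.16 at 16 months and -0.50, -0.62 and -0.35 at 24 months. Its difference was -0.36 ± 0.10 on a dim probe. Il2ra and Ctla4, with overlapping arrays, differed by -0.35 ± 0.23 and 0.15 ± 0.09. The 13 genes of the regulatory T cell list had a median of -0.11, with 8 negative and 5 positive. Foxp3 was the 1 member lower without overlap (7.69%), near the 6.84% over all named genes, and 0 were higher.

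B lineage transcripts came next. Jchain, the joining chain of secreted antibody, was far above the 1 month level in every animal, at 3.01, 2.58 and 2.04 at 16 months and 2.87, 2.38 and 2.72 at 24 months. The difference was 0.11 ± 0.27. The immunoglobulin segment Igkv19-93, the measured member of its list, was between 1.24 and 2.30 at 16 months and between 1.30 and 2.40 at 24 months. Prdm1, the plasma cell regulator that mature T cells also use, was lower without overlap, at -0.31 ± 0.11, as was Fkbp11, a chaperone of secretory cells, at -0.11 ± 0.07. Of 13 plasma cell genes these 2 were lower (15.4%) and 1 was higher (7.69%), and of 17 B cell genes 0 had non-overlapping arrays. Over all named genes 6.84% were lower and 4.36% higher without overlap, so with so few genes these counts say little.

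MHC class II transcripts showed how far 2 arrays of 1 age can differ. H2-Ab1 was at 0.96, 1.04 and 0.79 at 16 months and 2.04, 0.21 and 1.28 at 24 months, so the old animals bracketed all of the middle-aged ones. The difference was 0.25 ± 0.40. Over 10 class II genes the median was -0.04, and leaving out 24 month replicate 1 made it -0.39 while array weights made it 0.36. In MHC class I antigen processing, the peptide transporter Tap1 was lower without overlap, at -0.41 ± 0.16, and 13 of 15 genes of that list were negative. Tap1 was the 1 member lower without overlap (6.67%) and 0 were higher, against 6.84% and 4.36% of all named genes.

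**Figure D4:**
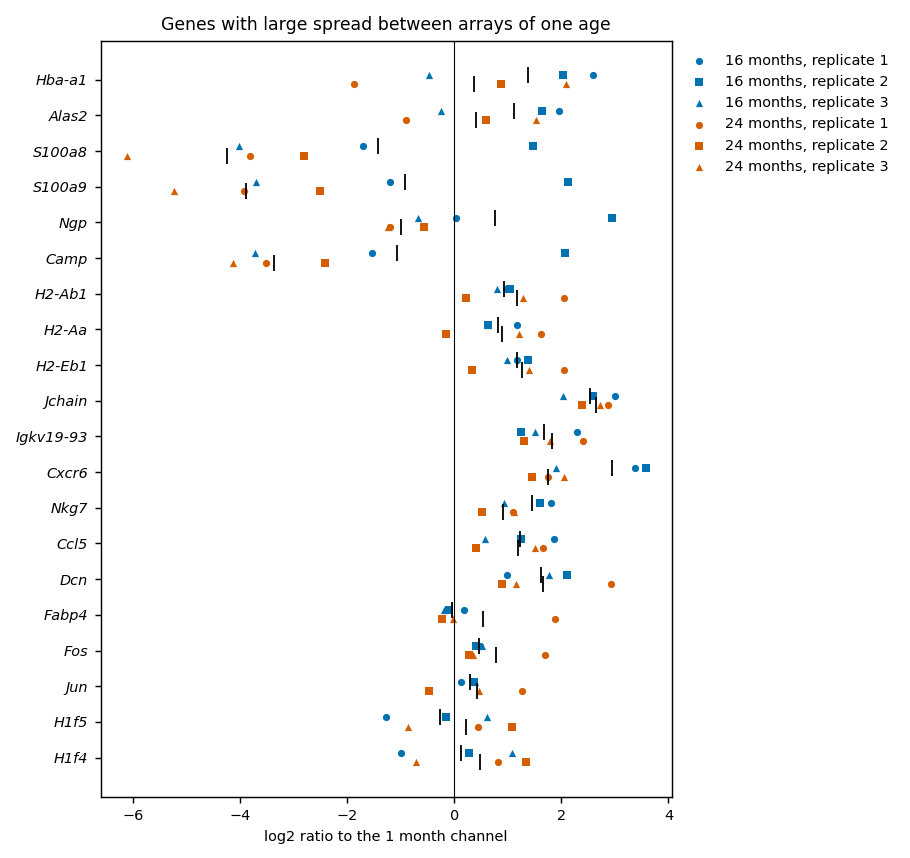
Log2 ratio to the 1 month channel of 20 genes of red cells, granulocytes, antigen-presenting cells, plasma cells, mature T cells, stroma, immediate early response and linker histones, chosen after their values were seen, on the 3 arrays of 16 months (blue) and of 24 months (orange), one marker per replicate, ticks at group means. Values span from -6.13 for S100a8 to above 3 for Cxcr6, and the ages overlap for every gene shown.

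A few genes of other pathways were apart without overlap. In the Notch pathway, which drives T lineage commitment, the target Hes1 was at -0.25, 0.01 and -0.57 at 16 months and 0.14, 1.64 and 0.38 at 24 months. Its difference of 0.99 ± 0.37 rested largely on 24 month replicate 2. Jag2, a Notch ligand, differed by -0.65 ± 0.22 on a dim probe, and Dtx1, a Notch target in thymocytes, by -0.60 ± 0.22 with overlap. Of 23 Notch genes, 4 were higher without overlap (17.4%) and 2 lower (8.7%), against 4.36% and 6.84% of all named genes. The median was 0.05. Notch1 and Notch3 had overlapping arrays.

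Adipoq, the adipocyte hormone, was at -0.03, -0.25 and -0.08 at 16 months and 0.27, 0.61 and 0.42 at 24 months, a difference of 0.56 ± 0.16 on a dim probe. Of 18 fat-cell and lipid uptake genes, 3 were higher without overlap (16.7%) and 0 lower, against 4.36% and 6.84% of all named genes. The median was -0.01, and one of the 3, Cfd, was not well above background. Ddit4, induced by glucocorticoids and stress, differed by 0.53 ± 0.22; its 24 month values, 0.09, 0.03 and 0.04, were close together while 16 month replicate 1 lay at -1.06 and the others at -0.18. Gclm, a subunit of the enzyme that limits glutathione synthesis, differed by -0.74 ± 0.21 on a very dim probe. Neu1, the lysosomal sialidase, differed by -0.40 ± 0.12 on a bright one. Without overlap, 2 of 14 glucocorticoid genes were higher (14.3%) and 0 lower. Among antioxidant genes 2 of 27 were lower (7.41%) and 0 higher, and among lysosome genes 2 of 35 (5.71%) and 0. These last 2 shares lay near the 6.84% lower over all named genes.

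Across the 50 lists, medians ran from -0.46 to 0.14, with 38 negative and 12 positive, and 0 members of any list passed the adjusted threshold. Under all 19 alternative settings that could be run, 22 lists kept the sign of their median, 19 of them negative and 3 positive. Settings that change only the error estimate leave a list's median as it was, so not all 19 could have changed a sign. The 3 positive lists were thymic epithelium, cytosolic ribosomal protein and glucocorticoid. Among the 19 negative ones were DNA damage and repair, mitochondrial ribosome, proteasome, granulocyte, NK and cytotoxic, and T cell receptor signalling. Since all genes had a median of -0.03, a small negative median alone sets no list apart. Cell cycle, interferon response, MHC class II and maturation genes changed sign with the array left out or the weights used.

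**Figure D5:**
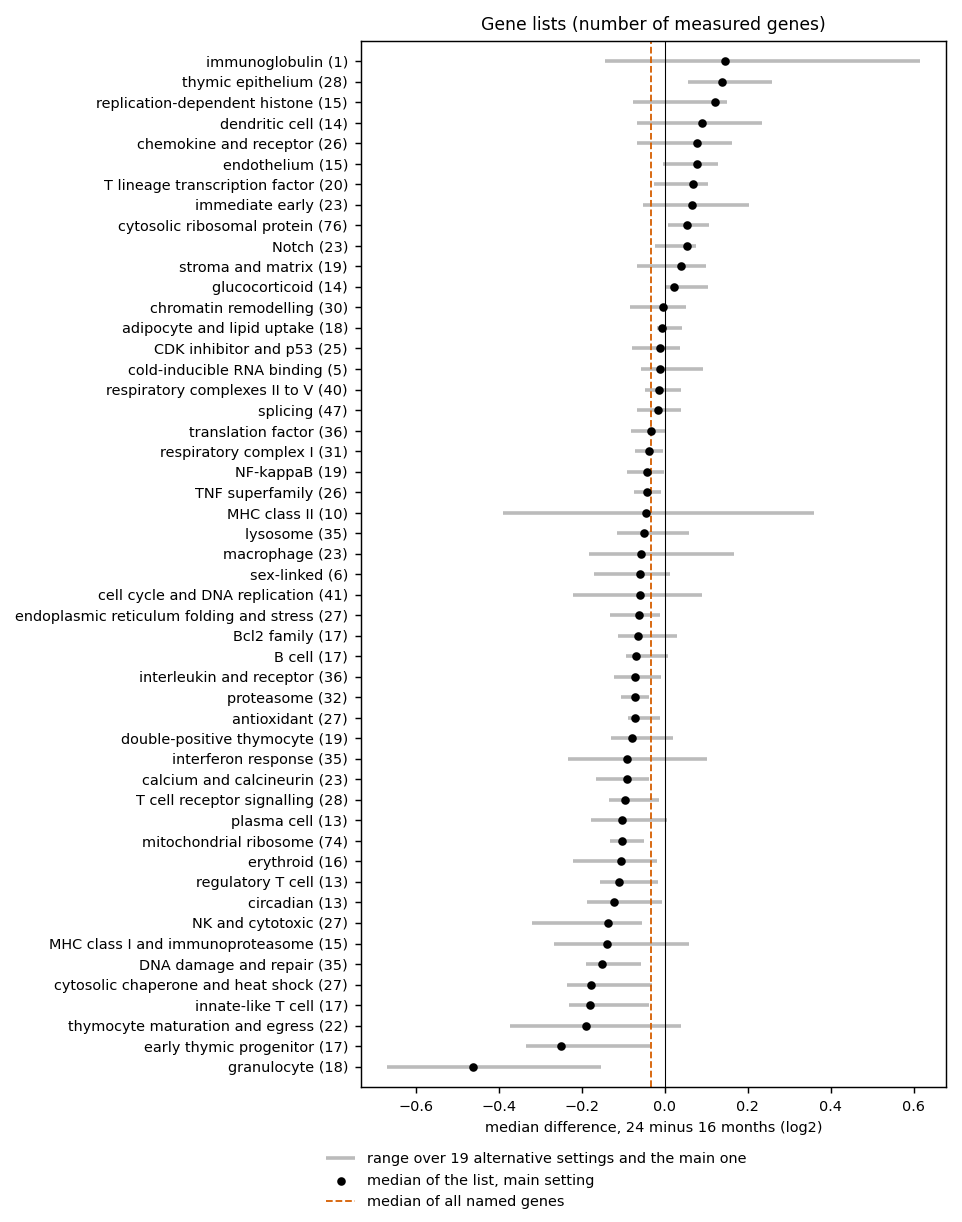
Median difference of 24 minus 16 months in log2 units (points) for each of 50 gene lists, with the number of measured genes in parentheses; grey bars span the medians over the 19 alternative settings and the main one. The dashed line is the median of all named genes at -0.03; granulocyte genes lie lowest at -0.46 with a wide bar, and thymic epithelium lies to the right of 0 throughout.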

How the data were processed

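Spot intensities in the deposited Agilent Feature Extraction files were background-subtracted and LOWESS dye-normalised by the authors, by version 7.5.1 per the file headers and 7.1 per the submitters' processing notes. Both channel samples of an array carried identical files. The authors' value table gives each channel a score, which recomputation showed to be log10 processed intensity standardised within the channel. The log2 ratio of Cy3 to Cy5 processed intensity was taken, outlier-flagged spots were dropped and spots of 1 probe were averaged. A probe was tested where Cy3 was well above background on all 3 arrays of an age, or Cy5 on all 9. limma 3.58.1 (R 4.3.3) fitted 3 age means over 9 arrays, and p-values were adjusted over 37448 probes. The test was checked on simulated data. Separate litters or preparations are not labelled, so p-values measure the spread between these animals together with that of their arrays and Cy5 partners. A probe missing 1 of the 6 arrays (430 probes) counts as overlapping.

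Probes were named through RefSeq accessions and symbols (20967 of 41174 probes, 16048 genes), and lists use the brightest probe of a gene. Named genes are, per direction, the 12 with the smallest p among genes whose ages do not overlap and whose Cy3 was measured, plus the first 3 members and the 2 with the smallest p of each of 50 lists. Further genes, Prss16, Trp63, Krt15, Enpep, Eya1, Cldn3, Foxn1, Aire, Rag1, Rag2, Ccl3, Lig4, Hes1 and those of the plot of variable genes among them, were picked with their values known. The members and lists were chosen with earlier results of these data known. There were 0 columns without a sample.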

Additional observations from a re-analysis of the deposited data

How the results depend on the processing

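In all 19 alternative settings run, limma called 0 probes at an adjusted p of 0.05. The smallest adjusted p was lowest, at 0.0935, without 24 month replicate 1. The number of probes at an unadjusted p under 0.05 was 1786 and stayed within 1.5 times of that except with array weights (3485) and without 24 month replicate 3 (3689). Leaving out 1 array in turn gave 1206 to 3689 probes, the lowest without 16 month replicate 2. The cause was not tested. No pairing by replicate number was seen: deviations of same-numbered arrays correlated at -0.02, 0.10 and -0.31, and 0 of 3 correlated best with their own number. With 3 arrays per age this cannot exclude a pairing. With the replicate block 0 probes passed and 1718 had an unadjusted p under 0.05. Of 449 differences of the 24 named genes under alternatives, 448 kept their direction and 1 reversed, Lgi1 at -0.24 with the Cy3 signal alone, quantile normalised. Settings that change only the filter or the error estimate leave a difference as it was. Leaving out 1 array cannot reverse a gene picked for ages that do not overlap. Most of these settings therefore could not have reversed a direction. Deposited scores are on another scale, so their sizes are not compared. With normexp background correction and loess within arrays, several dim named genes kept their sign but had smaller differences. Aifm1 went from -0.83 to -0.24, Pth2r from 0.93 to 0.36, Higd1b from 0.57 to 0.16 and Tbx18 from -0.48 to -0.11. Brighter genes changed less: Rbm3 went from 0.80 to 0.83, Dnajb1 from 0.34 to 0.33, Krt18 from 0.95 to 0.77 and Cypt4 from 0.29 to 0.20. The scan date was not run as a block because the headers give none. Groups of 3 are too small for an outlier test.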
